A study of Mus musculus with 2 samples.

Results

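Hepatocyte nuclei carrying transcripts of G2 and mitosis were chosen from a pair of mouse liver libraries by 12 genes of late cell division: Top2a, Mki67, Ect2, Diaph3, Aspm, Kif11, Cenpe, Hmmr, Casc5, Cenpf, Anln and Ttk. A barcode first had to pass a gate of at least 2000 unique molecular identifiers (UMIs, each standing for 1 captured RNA molecule), under 10% mitochondrial UMIs, and at most 1 UMI summed over 9 genes of other liver cell types (Stab2, Ptprb, Adgre1, Timd4, Reln, Ntm, Skap1, Pax5 and Flt3). It was then kept if the 12 genes summed to at least 4 UMIs from at least 2 of them. The rule kept 1411 of 16200 gated nuclei, out of 29613 barcodes in all. There were 417 such nuclei of 7199 gated in the HKO library and 994 of 9001 in the WT library. They are called members here, and their UMIs of the 12 genes are called rule UMIs.

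The libraries came from livers of C57BL/6 mice aged 12 weeks, sampled 48 h after PHx, partial hepatectomy, in which part of the liver is removed and the rest regrows. The controls are named Sox9f/f and carry the title WT. The other group is named Sox9HKO and carries the title HKO, an abbreviation that the labels do not spell out. Both groups had undergone the operation, so no unoperated liver enters any comparison. The promoter that drives any recombinase, the deleted part of Sox9, how nuclei were isolated, and whether a library holds 1 animal or several are not given in the sources used here. With 1 library per group there was no replicate and no test, and every difference below describes these 2 libraries. Parentheses after a value hold its exact 95% interval, which reflects the error of counting molecules and nothing else.

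Hepatocytes are mostly quiescent in the adult liver and re-enter the cell cycle after partial hepatectomy, replicating their DNA in S phase and then passing through G2 into mitosis. In G2 the cyclin B and Cdk1 kinase builds up, and the anaphase promoting complex with Cdc20 later destroys cyclin B so that chromosomes can separate. Many mouse hepatocytes fail to complete cytokinesis and remain with 2 nuclei or with a polyploid nucleus. Genes of G2 and mitosis are often controlled through a short promoter element called the cell cycle genes homology region (CHR), which the DREAM complex and the B-Myb and MuvB complex bind, beside CCAAT boxes bound by NF-Y. Genes of the start of S phase are controlled mainly through E2F sites.

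The promoters of 6 genes show these elements in place. They are examples, and not every gene high in members held CHR letters close to the start. Top2a was chosen as a rule gene, Cdk1, Cdc20, Prc1 and Iqgap3 as genes high in members, and Mcm6 as a replication gene whose level followed another course. Each line gives the 100 bases before a transcription start in RefSeq (GRCm38.p6), 5′ to 3′ on the strand of the gene. Capitals mark the letters of the CHR (TTTGAA or TTCGAA), of a CCAAT box (CCAAT) or of an E2F site (TTTCCCGC or TTTGGCGC), each searched on both strands.
Top2a (chr11:99024190-99024289, minus strand): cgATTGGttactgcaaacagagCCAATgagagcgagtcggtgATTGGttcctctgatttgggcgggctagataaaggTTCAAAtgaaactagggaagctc
Cdk1 (chr10:69352913-69353012, minus strand): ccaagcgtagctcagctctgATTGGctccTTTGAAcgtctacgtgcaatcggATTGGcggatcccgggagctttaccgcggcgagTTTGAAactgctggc
Cdc20 (chr4:118437344-118437443, minus strand): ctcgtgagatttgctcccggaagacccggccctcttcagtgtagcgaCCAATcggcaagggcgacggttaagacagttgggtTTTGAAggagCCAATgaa
Prc1 (chr7:80294376-80294475, plus strand): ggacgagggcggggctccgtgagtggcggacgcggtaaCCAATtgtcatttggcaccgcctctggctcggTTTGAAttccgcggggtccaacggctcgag
Iqgap3 (chr3:88081951-88082050, plus strand): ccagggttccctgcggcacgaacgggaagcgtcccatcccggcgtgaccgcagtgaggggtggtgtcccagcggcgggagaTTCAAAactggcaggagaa
Mcm6 (chr1:128359706-128359805, minus strand): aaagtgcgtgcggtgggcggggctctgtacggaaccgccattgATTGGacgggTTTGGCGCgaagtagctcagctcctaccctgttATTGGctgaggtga

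Cdk1, Cdc20, Prc1, Iqgap3 and Top2a each held CHR letters close to the start, at positions -15, -18, -30, -19 and -23 (the position of the motif's first base, with -1 just before the start). Cdk1 held another at -71. In the bases shown, CCAAT letters lay upstream of the CHR letters nearest the start in Cdc20 (-53), Prc1 (-62), Cdk1 (-48 and -80) and Top2a (-58, -78 and -98). Iqgap3 held no CCAAT letters. Mcm6, a subunit of the replicative helicase, had no CHR letters in its window and had E2F letters at -47 and -110. It also had CCAAT letters at -57 and -14.

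Over the longer RefSeq window of 250 bases before to 50 after the start, promoters of the genes that were higher in members (described below, 216 of 275 matched by symbol, 258 windows) held CHR letters in 36.8%. The share was 13.8% of 8064 windows of all genes measured and 19.2% of all 32851 windows in the table. Between -60 and 50 the shares were 26.7%, 4.12% and 5.90%. E2F letters stood in 14.3% of the windows of the higher genes, 3.08% of those measured and 1.56% of all, and CCAAT letters in 54.3%, 37.5% and 37.4%. The windows of the 12 rule genes (11 matched, 12 windows) held CHR letters in 83.3% and CCAAT in 91.7%, with E2F letters in 0. In the replication list the order was the other way, with CHR letters in 12.7% and E2F letters in 30.9% of 55 windows. Genes at least 8-fold higher in members of both libraries, a size chosen after the values were seen, numbered 56 and held CHR letters in 76.6% of 47 windows. Between -60 and 50 the share of these windows was 53.2%. Among the 16 highest genes, Troap and Nusap1 held no CHR letters in the longer window. The letters describe these windows only and do not show that a factor was bound.

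The HKO library held 14912 barcodes and 61123904 UMIs, and the WT library 14701 barcodes and 64609301 UMIs. Of these barcodes, 3856 in HKO and 288 in WT were under 2000 UMIs, and the gate then refused 3848 and 5228. Barcode sequences shared by the libraries numbered 70, of which 0 HKO and 5 WT members carried 1. Members had a median of 4181 UMIs in HKO and 4487.5 in WT, and a median of 0.0915% and 0.279% mitochondrial UMIs. The transcript targeted by the design, Sox9, was low in both libraries, with 8 UMIs in HKO members (3.69 CPM, the count scaled to a total of 1000000 UMIs over the summed nuclei) and 43 in WT members (8.49 CPM). Since the labels do not say which part of the gene was deleted, these counts do not check the label.

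The 12 rule genes were not equally represented among the members. The values in this paragraph are what chose the nuclei and describe them only. Diaph3, a formin that assembles actin at the cleavage furrow, was the most abundant with 526 CPM among HKO and 455 CPM among WT members, and at least 1 UMI in 86.6% and 84.1% of them. Top2a, the topoisomerase that untangles sister chromatids, followed at 310.5 and 418 CPM, and Casc5, the kinetochore scaffold Knl1, at 221 and 190 CPM. The lowest was Aspm, a spindle pole protein, at 47.5 and 63.0 CPM, with a UMI in 19.2% and 23.9% of members. Between these lay the cytokinesis factors Ect2 (167 and 181 CPM) and Anln (103 and 99.1), the proliferation marker Mki67 (125 and 149), the kinesins Kif11 (107 and 117) and Cenpe (107 and 136), the kinetochore protein Cenpf (68.3 and 99.1), the spindle protein Hmmr (81.7 and 93.7) and the checkpoint kinase Ttk (65.5 and 81.5). Nuclei with 6 or more of the 12 genes made up 37.6% of HKO and 38.6% of WT members, and all 12 were seen in 2 and 11 nuclei.

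Members near the threshold were numerous. Nuclei just inside, with 4 rule UMIs from at least 2 genes, numbered 83 in HKO and 200 in WT, and nuclei just outside, with 3, numbered 129 and 403. At least 4 UMIs from 1 gene alone kept out 4 and 5 nuclei. The median number of rule UMIs per member was 8 in HKO and 7.5 in WT, and the highest was 72 and 131.

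To give each rule gene a value that its own UMIs did not choose, nuclei were chosen again by the other 11 genes and compared with nuclei of similar depth holding 0 UMIs of those 11. Every rule gene was higher in the nuclei that the others chose, by 11.1-fold to 81.6-fold in HKO and by 8.67-fold to 26.9-fold in WT. Top2a was 22.2-fold (14.9 to 34.7) higher in HKO and 15.1-fold (12.5 to 18.3) higher in WT. Hmmr had the highest ratio in both libraries, 81.6-fold (22.2 to 680) on 2 UMIs in the HKO nuclei without the others, and 26.9-fold (16.4 to 47.5) in WT. The lowest ratios were those of Mki67 in HKO, 11.1-fold (6.94 to 18.8), and Ect2 in WT, 8.67-fold (6.99 to 10.9). In nuclei with 0 UMIs of the other 11 genes, Diaph3 still had a UMI in 6.96% of HKO and 13.8% of WT nuclei. Leaving any 1 gene out of the rule kept 76.0% to 98.8% of HKO members and 78.8% to 97.5% of WT members.

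**Figure D1:**
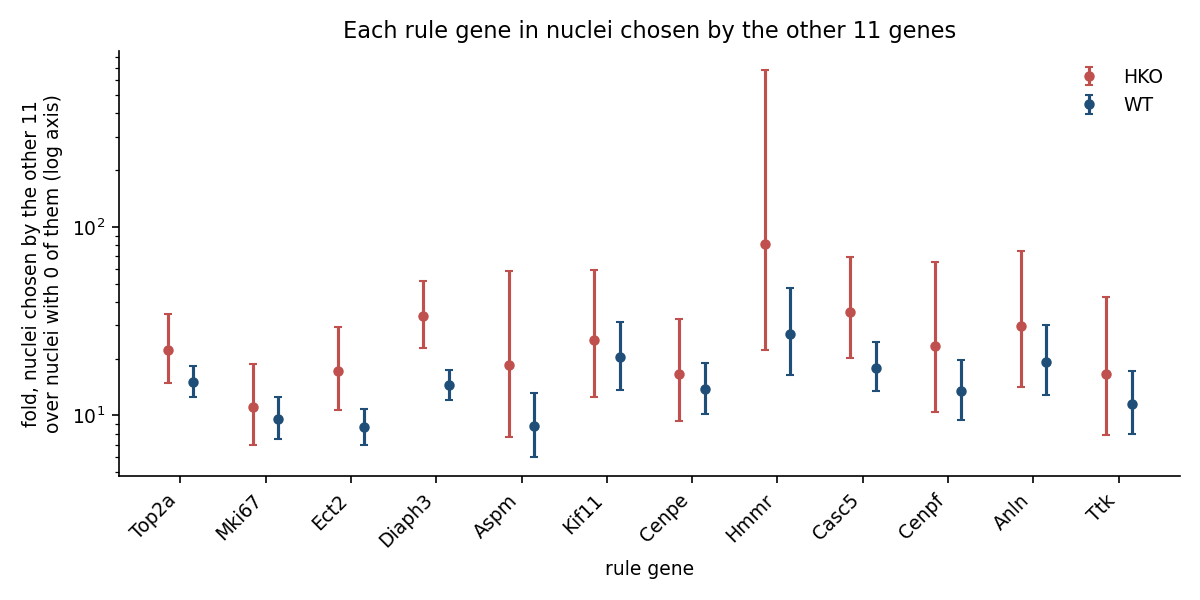
Fold (log axis) of each of the 12 rule genes in nuclei chosen by the other 11 genes over depth-matched nuclei with 0 UMIs of those 11, in the HKO and WT libraries, with exact 95% counting intervals as bars. The ratios run from 8.67-fold for Ect2 in WT to 81.6-fold for Hmmr in HKO, whose interval is the widest.

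Members made up 5.79% (5.26 to 6.36) of gated nuclei in HKO and 11% (10.4 to 11.7) in WT. The share moved with depth, which the libraries do not share. Among gated nuclei of 2000 to under 3000 UMIs it was 5.39% (4.39 to 6.55) in HKO and 5.87% (5.13 to 6.67) in WT. Above that depth the libraries separated, with 5.06% and 10.8% at 3000 to under 5000 UMIs, 6.11% and 19.7% at 5000 to under 8000, and 10.5% and 26.1% at 8000 or more. After every gated nucleus was thinned to 2000 UMIs, which left out no gated nucleus, the same rule kept 3.13% (2.74 to 3.55) in HKO and 6.07% (5.58 to 6.58) in WT. Nuclei with 0 rule UMIs were 65.1% of gated nuclei in HKO and 43.5% in WT, with a median depth of 3965 and 3117 UMIs. Among barcodes that the gate refused for UMIs of other cell types, the rule was met by 13.3% in HKO and 17.5% in WT, and after thinning by 5.95% (5.22 to 6.75) and 6.98% (6.31 to 7.71). The spread of such shares between livers of 1 group cannot be read from these libraries.

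The label of hepatocytes rests on the gate. The 20 hepatocyte markers summed to 16404 CPM in HKO members, 18336 CPM in depth-matched gated nuclei without rule UMIs, and 17233 CPM in refused barcodes without rule UMIs. In WT the values were 30398, 34025 and 34918 CPM, so these markers do not separate gated from refused barcodes. The gate's own 9 genes did, by construction, at 75.9 CPM in HKO members against 1193 CPM in refused barcodes and 88.5 against 1194 CPM in WT. Endothelial markers outside the gate (17 genes, none at 0 in members) summed to 152 CPM in HKO members, 145 CPM in matched nuclei without rule UMIs and 930.1 CPM in refused barcodes, and in WT to 181, 165 and 741 CPM. The 16 stellate markers were likewise lowest inside the gate, at 337 and 384 CPM in HKO and WT members against 1321 and 1191 CPM in refused barcodes, with 1 of them at 0 in HKO members.

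Macrophage markers, like endothelial ones, summed to slightly more in members than in matched nuclei of each library. The 16 genes, none of which was at 0, came to 462 CPM (434 to 492) in HKO members against 393 CPM (366 to 420) in matched nuclei, and in WT to 440.3 CPM (422 to 459) against 422 CPM (404 to 440). Of the 7 macrophage genes measured singly 3 were above 0 in both libraries, with medians of 0.16 in HKO and -0.03 in WT, and the highest was Ptprc, the pan-leukocyte phosphatase, at 0.67 and 0.61. Of 3 endothelial genes 1 was above 0 in both, with medians of -0.36 and 0.17. In HKO the macrophage sum was highest in members with 4 to 5 rule UMIs, at 661 CPM, and lowest in those with 20 or more, at 267 CPM. Of 23 lymphocyte and dendritic cell markers, 6 were at 0 in HKO members and 4 in WT members, and the sum was 89.7 CPM in HKO members against 65.3 CPM in matched nuclei, and 41.5 against 41.9 CPM in WT. The part of such transcripts in the results below was not tested.

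Members were next set against gated nuclei with 0 rule UMIs, paired by total UMIs within 10%, which found a partner for 414 HKO and 992 WT members. This contrast holds the same nuclei that the rule chose, so its counts describe the members and support nothing. Counts were summed over nuclei, scaled to CPM and compared as log2 ratios with 0.5 CPM added. Without the rule genes, 8073 genes averaged 10 CPM or more over the pair of sums in each library, and 275 of them (3.41%) were at least 2-fold higher in members in both libraries. In HKO alone 376 (4.66%) and in WT alone 321 (3.98%) passed that size. The 0 (0%) that were 2-fold lower in both libraries stand beside 24 (0.297%) lower in HKO, 8 (0.0991%) lower in WT, and 25 lower by at least 1.5-fold in both. The median log2 ratio of all genes measured was 0.03 in HKO and 0.06 in WT. The floor fixed part of these counts, since a gene at 6.5 CPM or less in the partners reached a mean of 10 CPM only where members were at least 2-fold higher. That held in at least 1 library for 137 genes, and 151 of the 275 were free of it in both. The counts by list below are therefore descriptions of the measured genes. Among cyclins and their kinases, 2 of the 7 genes called higher were free of the floor in both libraries. The same held for 3 of 8 in the mitotic kinase list, 7 of 22 kinetochore, 4 of 21 spindle and 0 of 11 cytokinesis genes. It held for 6 of 11 condensin and cohesin, 23 of 40 replication and 11 of 21 repair genes. Of the 275 genes, 156 were in a list of cell cycle, replication or repair genes and 119 in none of them.

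Cyclins and their kinases were higher together. Of 10 measured genes of the list, 7 were at least 2-fold higher in both libraries, with medians of 1.85 in HKO and 1.78 in WT. Cdk1 (chr10:69335146-69352938, minus strand, GENCODE vM21 on GRCm38), the kinase that drives entry into mitosis, had 70 UMIs in 414 HKO members against 2 in their partners (33.2 against 0.953 CPM, 34.8-fold, 9.29 to 293). In WT it had 136 against 19 UMIs (27.1 against 3.81 CPM, 7.13-fold, 4.39 to 12.2). Cdk1 was thus at a similar level in the members of both libraries, while its level in nuclei without rule UMIs was lower in HKO. The B-type cyclin Ccnb2 was 2.25 and 2.12 higher on the log2 scale in HKO and WT, the inhibitory Cdk1 kinase Pkmyt1 2.95 and 2.57, and the S phase cyclin Ccne2 2.31 and 2.32. Of the remaining members of the list, Cdk2 (1.74 and 0.91) and Cks2 (0.96 and 1.19) passed the size in 1 library each, and the G1 cyclin Ccnd1 in neither (0.58 and 0.41).

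All 21 measured genes of the spindle list were past the size in both libraries, with medians of 4.13 in HKO and 3.44 in WT. For 17 of them the floor fixed this in at least 1 library. Summed without any floor, the 25 genes of the list stood at 1663 CPM (1608 to 1719) in HKO members against 197 in their partners, and at 1573 CPM (1539 to 1608) in WT members against 234. Kif15, a kinesin that helps keep the spindle bipolar, was at 142 against 7.62 CPM in HKO (18.6-fold, 11.3 to 33.0) and at 129 against 6.61 CPM in WT (19.5-fold, 13.7 to 28.5). Kif2c, a kinesin that depolymerizes microtubules at centromeres, had 82 UMIs against 1 in HKO and 192 against 9 in WT. Ckap2 (5.25 and 3.71), Cdca2 (4.80 and 3.86), Tpx2 (4.38 and 3.93) and Nusap1 (4.61 and 3.70) were higher by similar log2 ratios.

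At the kinetochore, the structure that ties chromosomes to the spindle, 22 of 24 measured genes were at least 2-fold higher in both libraries. The exceptions were Cenpc1 (0.90 and 0.92) and Itgb3bp (1.51 and 0.73). Cenpp, a constitutive centromere protein, was the most abundant of those named, at 552 against 25.3 CPM in HKO and 369.9 against 40.9 CPM in WT. It was detected in 79.7% of HKO and 70.0% of WT members, and in 10.1% and 16.8% of their partners. Ndc80, the microtubule coupler, had log2 ratios of 5.17 and 3.69, and Sgol1, shugoshin, the guardian of centromeric cohesion, 4.84 and 3.19. Of 9 measured genes of the mitotic kinase list 8 passed in both libraries. Among them were the checkpoint kinase Bub1b (50.8 against 2.86 CPM in HKO, 53.8 against 4.61 in WT) and Aurka, the spindle pole kinase (3.01 and 2.60). The remaining gene of that list was Cenpj, at 0.76 and 0.32. Not every gene of the list encodes a kinase, since it also holds Stil, a centriole assembly factor.

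Genes of cytokinesis divided into a pair of groups. Of 19 measured, 11 were at least 2-fold higher in both libraries, all 11 of them measured only through their level in members, and the 8 others lay between -0.18 and 0.36, among them the broadly used genes Rhoa, Rock1, Rock2, Lats1 and Lats2. Prc1 (chr7:80294450-80316259, plus strand), which bundles the microtubules of the spindle midzone, stood at 109 against 1.91 CPM in HKO (57.0-fold, 22.0 to 211) and at 104 against 5.41 CPM in WT (19.3-fold, 13.1 to 29.5). Iqgap3, a scaffold at the cell cortex, had 111 against 2 UMIs in HKO and 196 against 7 in WT. Kif14, a midbody kinesin, had log2 ratios of 4.71 and 3.64.

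Condensin and cohesin genes divided in the same way, with 11 of 20 higher in both libraries. Esco2, the acetyltransferase that locks cohesin in S phase, stood at 121 against 5.24 CPM in HKO and 138 against 12.2 in WT. Espl1, separase, had log2 ratios of 4.11 and 3.58, and the condensin subunits Ncaph and Ncapg 4.39 and 3.49 in HKO and 2.70 and 3.10 in WT. The cohesin core genes Smc1a (0.70 and 0.55) and Smc3 (0.43 and 0.54) and the loader Nipbl (-0.15 and 0.14) did not reach the size. Of 12 measured genes of the anaphase promoting complex and its partners, only Cdc20, its mitotic activator, and Ube2s, its chain-extending enzyme, did so in both libraries. Cdc20 had 47 UMIs in HKO members against 1 in their partners (46.8-fold, 8.0 to 1887) and 208 against 11 in WT (18.8-fold, 10.3 to 38.3).

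DNA replication and repair genes were also high in members, although no gene of these lists was in the rule. Of 49 measured replication genes 40 were at least 2-fold higher in both libraries, with medians of 2.13 in HKO and 1.61 in WT, and none was below 0. The list summed to 3058 CPM (2983 to 3133) in HKO members and 3059 CPM (3011 to 3108) in WT members, against 856 and 1104 CPM in their partners. Uhrf1, which carries DNA methylation through replication, stood at 47.4 against 1.91 CPM in HKO and 47.9 against 7.21 CPM in WT. Clspn, the adaptor of the replication checkpoint, had log2 ratios of 3.48 and 3.06, and Rrm2, a subunit of ribonucleotide reductase, 2.68 and 3.29. Of 27 measured repair genes 21 were higher in both, led by the Fanconi anaemia genes Fanci (4.80 and 3.42) and Fancd2 (4.23 and 3.56), the glycosylase Neil3 (4.56 and 3.55) and the polymerase Polq (3.64 and 3.53).

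Among transcription factors of the cell cycle 7 of 14 passed in both libraries. E2f7, a repressor of E2F targets, had log2 ratios of 4.36 and 3.2, and Mybl1 stood at 181 against 35.7 CPM in HKO and 97.7 against 18.6 in WT. Of 13 measured chromatin genes 6 passed, among them Asf1b, a histone chaperone (3.26 and 3.33), and the methyltransferase Ezh2 (244 against 59.6 CPM in HKO, 212 against 66.1 in WT). Of 9 measured CDK inhibitors and p53 targets 0 passed in both libraries, and all 9 lay above 0 in both, with medians of 0.54 and 0.58. The highest were Aen, a p53-induced nuclease (0.95 and 0.92), and the inhibitor Cdkn1b (0.85 and 0.58).

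The highest genes outside these lists were Lockd, Neurl1b, Ankle1, Ckap2l and Troap. Lockd (chr6:134929092-134956798, plus strand), a long noncoding RNA downstream of Cdkn1b, stood at 156 against 2.38 CPM in HKO (65.3-fold, 27.7 to 202) and at 129 against 7.41 CPM in WT (17.3-fold, 12.5 to 24.9). Neurl1b, a ubiquitin ligase that acts on Notch ligands, had 99 against 3 UMIs in HKO (32.9-fold, 10.9 to 162) and 300 against 11 in WT (27.1-fold, 15.0 to 55.0). Ankle1, a nuclease of chromatin bridges, had log2 ratios of 4.26 and 4.36.

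**Figure D2:**
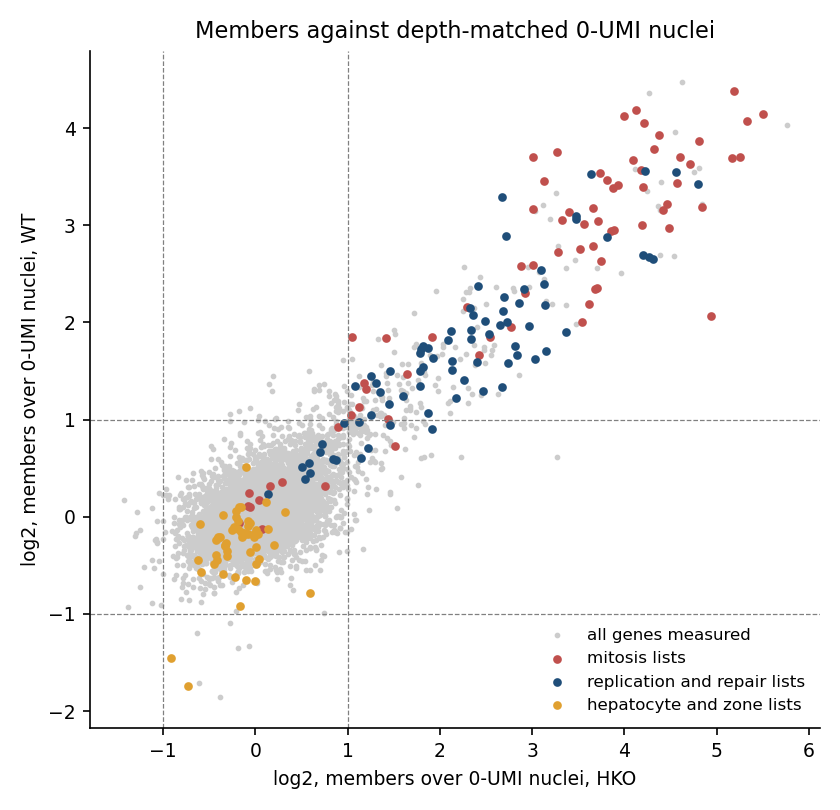
Log2 ratio of members over depth-matched nuclei with 0 rule UMIs, HKO on the horizontal and WT on the vertical axis, 1 point per gene of 8073, with mitosis lists, replication and repair lists, and hepatocyte and zone lists in colour and the 2-fold size as dashed lines. Mitosis genes reach the far upper right, and no gene lies beyond the dashed lines in the lower left.

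Genes of hepatocyte function were lower in members by small amounts. Of 20 measured hepatocyte markers 17 were below 0 in both libraries and 0 passed the 2-fold size, with medians of -0.12 in HKO and -0.17 in WT. Of all 8073 genes measured, 2218 (27.5%) were below 0 in both, the background for the counts in this and the next paragraph. Mat1a, which makes the methyl donor S-adenosylmethionine, had log2 ratios of -0.33 and -0.29, and the nuclear receptor Ppara -0.29 and -0.35. Of 16 measured receptors of growth signals, 11 were below 0 in both libraries. The growth hormone receptor Ghr stood at 3468 against 4711 CPM in HKO and 4913 against 6586 in WT, and Egfr at 7582 against 9070 CPM and 8875 against 10687.

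The lowest genes included markers of the hepatocytes next to the central vein. Glul (chr1:153899944-153909723, plus strand), glutamine synthetase, which marks the innermost pericentral layer, stood at 77.8 against 147 CPM in HKO and 113 against 309 CPM in WT. Partners were thus 1.89-fold (1.56 to 2.29) and 2.74-fold (2.49 to 3.02) above members. Slc1a2, a glutamate transporter of the same cells, stood at 185 against 307 CPM in HKO and 118 against 398 CPM in WT. A UMI of Slc1a2 was seen in 33.3% of HKO members against 30.4% of their partners, and in WT in 31.1% against 44.5%. For Glul the shares were 20.3% against 25.1% in HKO and 29.2% against 37.7% in WT. Of 18 measured pericentral genes 12 were below 0 in both libraries, with medians of -0.13 in HKO and -0.46 in WT, and Cyp2e1 had log2 ratios of -0.45 and -0.49. Periportal genes were lower in the same number, 12 of 18, with medians of -0.29 and -0.08. Cyp2f2, a periportal cytochrome, stood at 96.8 against 146 CPM in HKO and 97.5 against 145 in WT, and the histidine-degrading enzyme Hal had log2 ratios of -0.62 and -0.44. Others among the lowest were Lrrc16a, a regulator of actin capping (-0.75 and -0.77), the acetyl-CoA carboxylase Acacb (-0.68 and -0.72) and the sulfotransferase Sult2a8 (-0.78 and -0.68). Fewer pericentral nuclei among members and less of these RNAs per nucleus cannot be told apart in sums of nuclei.

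**Figure D3:**
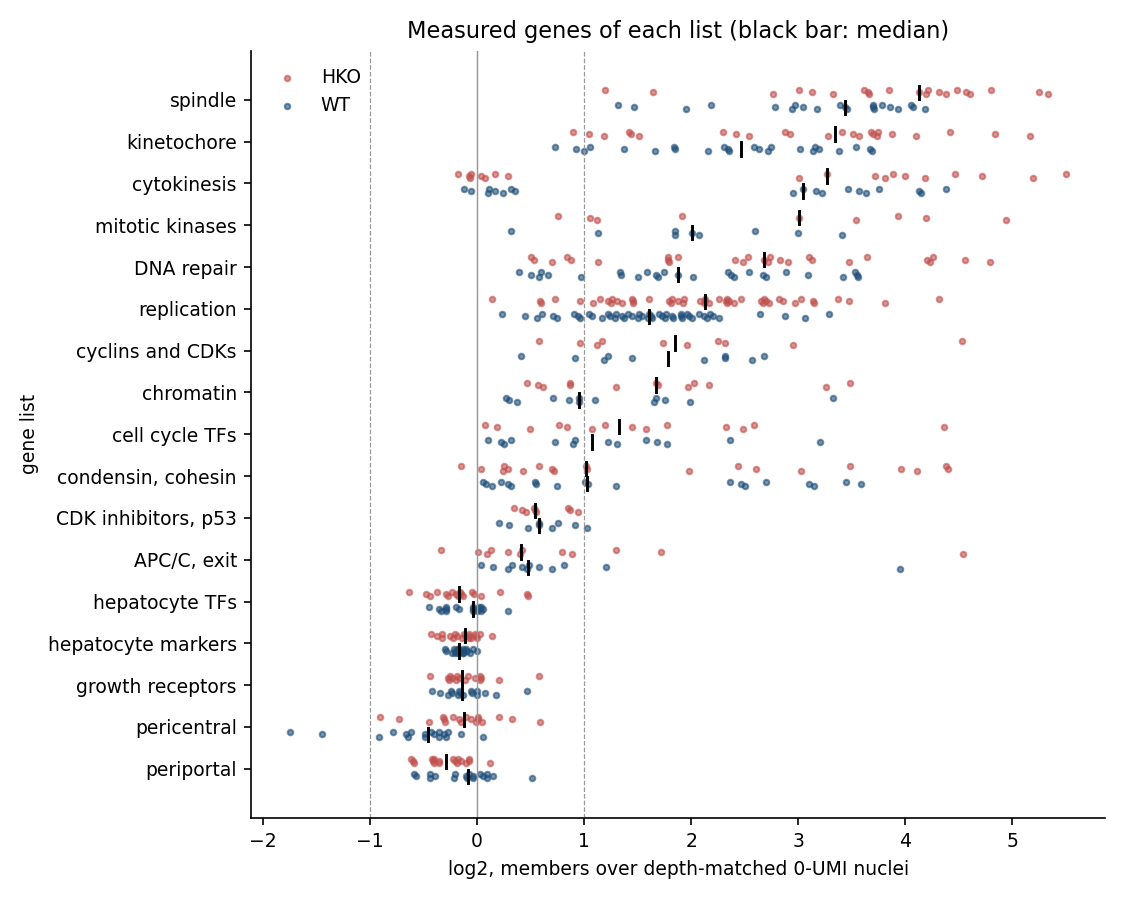
Log2 ratio of members over depth-matched nuclei with 0 rule UMIs for each measured gene of each list, HKO and WT in separate colours, with the list's median as a black bar. Spindle genes have the highest medians (4.13 in HKO, 3.44 in WT), replication genes lie lower (2.13 and 1.61), and the medians of hepatocyte, pericentral and periportal genes lie below 0.

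The members were not uniform along the number of rule UMIs, and the label of G2 and mitosis matched them in part. In HKO the replication list stood at 868 CPM in gated nuclei with 0 rule UMIs, 2167 CPM with 3 (just outside the threshold), 3119 CPM with 4 to 5, 3167 CPM with 6 to 9, 3145 CPM with 10 to 19, and 2418 CPM (2257 to 2588) with 20 or more. In WT the same levels were 1180, 2272, 3057, 3399, 3276 and 2120 CPM (2023 to 2221). Replication transcripts were thus highest in members with fewer than 20 rule UMIs and lower in those with the most. The spindle list was instead highest in the top class, going from 1016 CPM at 4 to 5 rule UMIs to 2697 CPM at 20 or more in HKO, and from 806 to 3110 CPM in WT. Since spindle and rule genes belong to the same programme and the same nuclei, this course is a description. The classes held 137, 134, 104 and 42 HKO members and 329, 293, 254 and 118 WT members, with a median depth of 7103 and 6596 UMIs in the top class against 3713 and 3912 UMIs at 4 to 5.

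Some single genes followed these courses and others did not. Cdc20 stood at 8.54, 9.56, 24.6 and 60.9 CPM in HKO members of 4 to 5, 6 to 9, 10 to 19 and 20 or more rule UMIs, and at 13.6, 35.2, 46.2 and 93.2 CPM in WT. Ccnb1, cyclin B1, came to 31.9 CPM (11 UMIs) and 34.2 CPM (29 UMIs) in the top class of HKO and WT, from 1 and 3 UMIs at 4 to 5. Both genes were thus highest in level in the top class of each library. At 4 to 5 rule UMIs the WT level of Ccnb1 was 2.04 CPM (0.421 to 5.97). That is within counting error of the 2.15 CPM in WT nuclei with 0 rule UMIs. Mcm6 went the other way between the lowest and the top class of members. It went from 80.3 CPM (59.0 to 107) to 46.4 CPM (26.5 to 75.3) in HKO, where the intervals overlap, and from 84.4 to 30.7 CPM in WT. Rrm2 did not follow Mcm6 between these classes, going from 15.4 to 20.3 CPM in HKO and from 11.6 to 24.8 CPM in WT. Cdc6 went from 10.2 to 14.5 CPM in HKO (6 and 5 UMIs) and from 23.8 to 10.6 CPM in WT. Ccne2, the cyclin of S phase entry, was highest at 10 to 19 rule UMIs (68.9 CPM in HKO, 39.7 in WT) and lower at 20 or more (26.1 and 22.4). The sums of each class of members thus held both replication and mitotic transcripts. The top class held less of the replication list and more of the spindle list than the other classes. Whether single nuclei held both was not tested, and the members are best named by their rule.

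**Figure D4:**
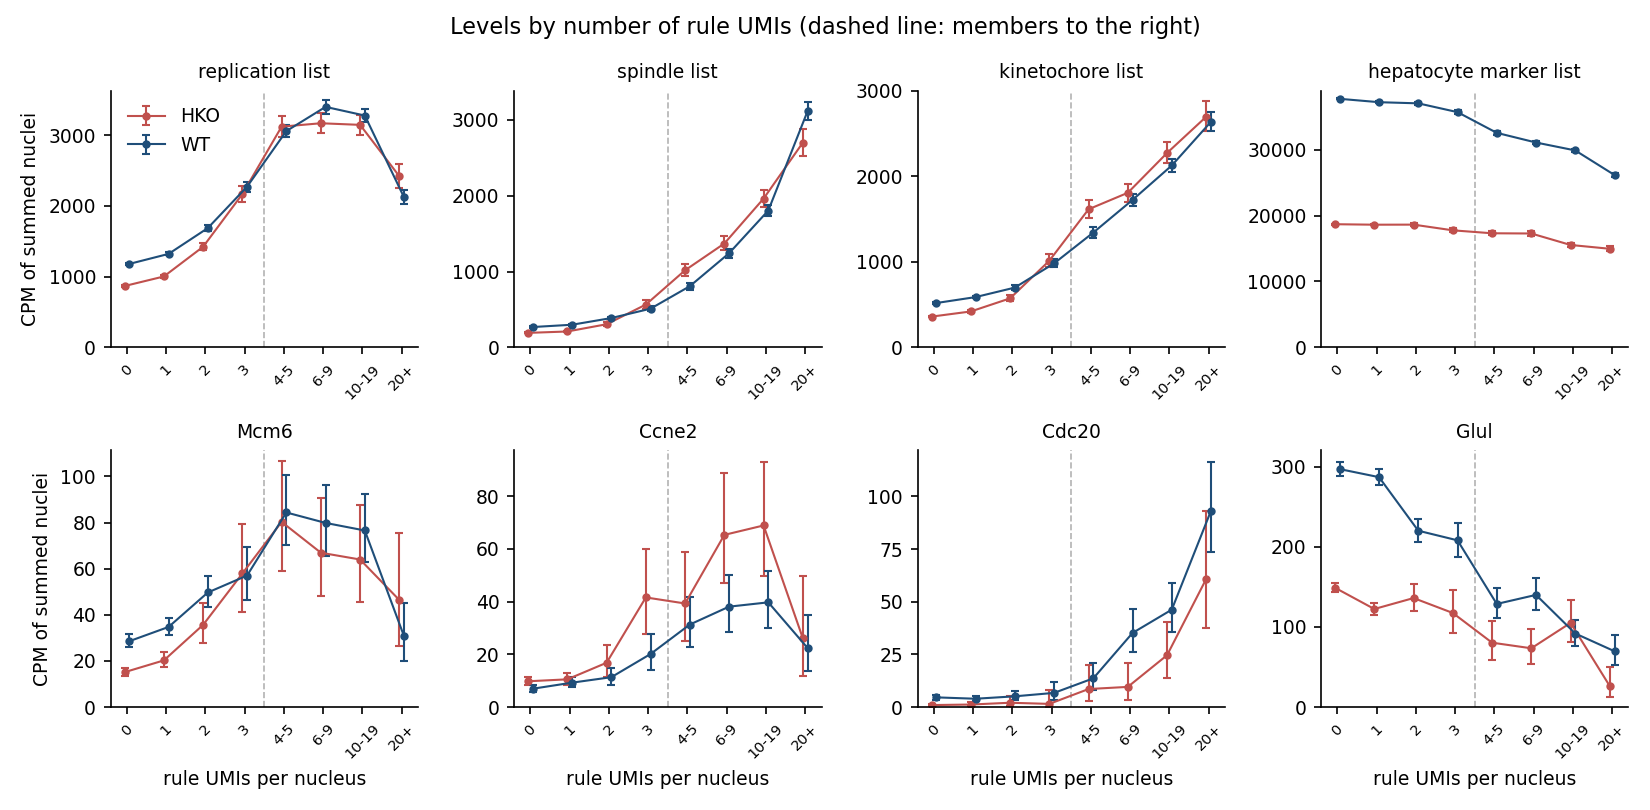
Level in CPM of summed nuclei (vertical axis from 0) by the number of rule UMIs per nucleus (horizontal axis), in 8 panels for the replication, spindle, kinetochore and hepatocyte marker lists and for Mcm6, Ccne2, Cdc20 and Glul, with exact 95% counting intervals, and with members to the right of the dashed line. Replication genes, Mcm6 and Ccne2 are lower at 20 or more rule UMIs than at 10 to 19, while spindle genes and Cdc20 are highest there and Glul is lowest.

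Members with 20 or more rule UMIs, a class chosen after the values were seen, were also set against their own depth-matched partners (42 of 42 in HKO and 116 of 118 in WT). Of 7918 genes measured, 394 (4.98%) were at least 2-fold higher and 38 (0.48%) at least 2-fold lower in both libraries. The HKO members of this class summed to only 344884 UMIs, so a gene could pass on few UMIs. Fasn, among the 38, had 4 UMIs in them against 10 in their partners, a difference within counting error. The floor of 10 CPM again fixed part of the higher counts, and the number of such genes was not determined for this class. All 23 measured spindle genes were higher in both, with medians of 4.18 and 4.45, whereas 19 of 40 replication genes were, with medians of 1.94 and 1.13. The part of the floor in this contrast of lists was not tested. Mcm6 was at 46.4 CPM in these members against 11.7 CPM in their partners in HKO (16 against 4 UMIs), and at 28.9 against 26.4 CPM in WT (23 against 21 UMIs), where the difference is within counting error. Cdk1 had 23 UMIs against 0 in HKO and 51 against 0 in WT.

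The 38 genes lower in this class included Glul and Slc1a2, other genes of hepatocyte metabolism, noncoding RNAs such as Meg3, and 5 unnamed gene models. Glul stood at 26.1 against 111 CPM in HKO (partners 4.25-fold higher, 2.02 to 10.0) and at 74.2 against 371 CPM in WT (5.0-fold, 3.77 to 6.73), and Slc1a2 at 119 against 380 CPM and 94.3 against 373 CPM. Of 18 measured pericentral genes 3 were at least 2-fold lower in both libraries and 14 were below 0 in both. Of 18 periportal genes 11 were below 0 in both, and of 20 hepatocyte markers 17, with 0 of either list at least 2-fold lower in both. Of all genes measured 26.7% were below 0 in both, so lower levels were not limited to pericentral genes. Cyp7a1, the rate-limiting enzyme of bile acid synthesis, stood at 168 against 350.4 CPM in HKO (2.08-fold, 1.51 to 2.90) and at 26.4 against 66.6 CPM in WT (2.52-fold, 1.5 to 4.41). Cyp27a1, the sterol 27-hydroxylase of the other bile acid route, was 2.13-fold (1.69 to 2.71) and 2.15-fold (1.80 to 2.59) higher in the partners. The carboxylesterase Ces1f was 3.36-fold and 3.32-fold higher there, and the organic anion transporter Slco1a1 2.38-fold and 2.56-fold. These genes were picked from the 38 after their values were seen.

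HKO members were last compared with WT members, the contrast of genotypes that the study's design holds. Among the 8701 genes averaging 10 CPM or more, 282 (3.24%) were at least 2-fold higher and 352 (4.05%) at least 2-fold lower in HKO members. In the matched nuclei without rule UMIs, the same genes gave 337 (3.87%) higher and 475 (5.46%) lower. Of the 634 genes past 2-fold in members, 493 were past it in the same direction in nuclei without rule UMIs and 9 had the opposite sign. The median of all genes was 0.15 in members and 0.17 in nuclei without rule UMIs, so a gene at 0 lies below most others. Scaling that moves this median to 0 turned the counts from 282 higher and 352 lower (44.5% higher) into 189 and 486 (28.0% higher) under TMM, and into 187 and 487 (27.7% higher) under the median of ratios. A difference of library and a difference of genotype cannot be told apart with 1 library each.

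The division genes themselves differed little between HKO and WT members. Members of both libraries passed the same threshold on genes of this programme, and their partners held 0 rule UMIs. Likeness of the members in these lists is therefore partly set by that choice and describes these nuclei only. None of the measured genes in the mitotic kinase, kinetochore, spindle, cytokinesis, condensin, anaphase promoting complex, replication and repair lists was past 2-fold either way in members. Their medians were 0.03 for the spindle and kinetochore lists and -0.05 for replication and repair, against the 0.15 of all genes. In nuclei without rule UMIs the same medians were lower, -0.54 for spindle, -0.51 for kinetochore, -0.44 for replication and -0.49 for repair genes. The levels of these 4 lists in nuclei without rule UMIs were thus higher in WT than in HKO. The mitotic kinase list had the lowest median there, -0.61, although its sums were level (133.4 CPM in HKO and 132.8 CPM in WT). For the anaphase promoting complex the median was -0.08, for condensin and cohesin 0.06 and for cytokinesis genes 0.19. The last 2 lists summed to more in HKO (1988 against 1796 CPM and 1295 against 1058 CPM).

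Between members, the largest difference of a mitotic gene named here was that of Cdc20. Its level was 21.7 CPM in HKO members and 41.6 CPM in WT members (1.92-fold higher in WT, 1.39 to 2.69). Cdc20 was also lower in the HKO partners, with 1 UMI against 11 in WT (log2 -1.47). All gated nuclei without rule UMIs held 19 UMIs of Cdc20 in HKO (0.924 CPM) against 66 in WT (4.59 CPM). The difference in Cdc20 was thus not limited to members. Among cyclins and their kinases 2 genes were past 2-fold. Ccne1, cyclin E1, had 37 UMIs in HKO and 28 in WT members (17.1 against 5.53 CPM, 3.09-fold, 1.84 to 5.24), while its partners held 2 UMIs in HKO and 15 in WT (log2 -1.27). Over all gated nuclei without rule UMIs the HKO level of Ccne1 was 2.38 CPM (1.76 to 3.15) and the WT level 2.85 CPM (2.04 to 3.86), within counting error of each other. Wee1, a kinase that holds back Cdk1, was higher by 1.39 in members and by 1.71 in nuclei without rule UMIs. Wee1 thus differed in the same direction in both kinds of nuclei.

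The genes that differed most between the libraries were not division genes, and differed in the same direction in both kinds of nuclei. Cux2, a homeobox factor with sex-dependent expression in mouse liver, was highest, at 99.2 against 3.55 CPM in members (27.9-fold, 17.2 to 48), with log2 ratios of 4.62 in members and 4.78 in nuclei without rule UMIs. Whether the libraries differ in sex was not tested. Lpin1, a phosphatidate phosphatase, had 3.81 and 3.99, and Lepr, the leptin receptor, 3.18 and 4.33. At the other end Iigp1, an interferon-inducible GTPase, stood at 117 CPM in HKO members and 1913 CPM in WT members (16.4-fold, 14.5 to 18.6), with log2 ratios of -4.03 and -4.11. Nr0b2, the bile acid-induced repressor SHP, had -3.74 and -3.61.

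Genes whose ratio differed most between members and nuclei without rule UMIs rested on few UMIs. Ska3, a spindle and kinetochore protein, had 28 UMIs in HKO members against 0 in their partners (at least 9.29-fold higher, taking 3 UMIs for the partners' sum of 0) and 67 against 13 in WT. Stil, a centriole assembly factor, had 93 against 2 UMIs in HKO (46.3-fold, 12.5 to 388) and 202 against 46 in WT (4.37-fold, 3.16 to 6.16). In each case the members of both libraries were alike, with HKO over WT log2 ratios of 0.06 and 0.12, and the partners differed. Ube2u, a ubiquitin-conjugating enzyme, had the lowest difference, with 57 against 34 UMIs in HKO and 20 against 0 in WT.

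**Figure D5:**
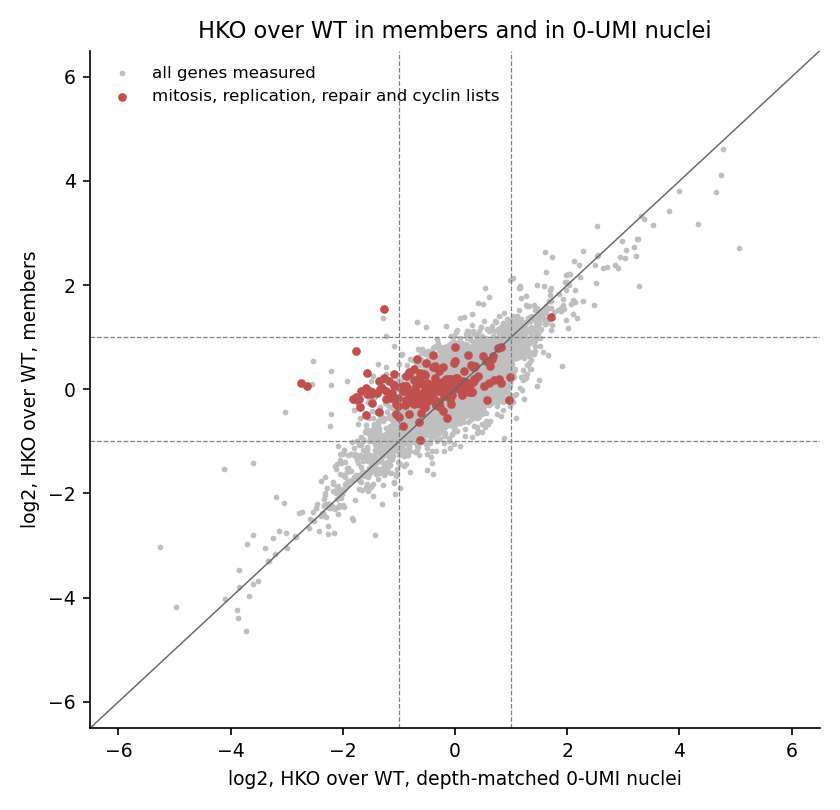
Log2 ratio of HKO over WT in depth-matched nuclei with 0 rule UMIs (horizontal axis) and in members (vertical axis), 1 point per gene of 8701, with genes of the mitosis, replication, repair and cyclin lists in red, the diagonal as a line and the 2-fold size as dashed lines. Of the 634 genes past 2-fold in members, 493 are past it in the same direction in the other nuclei, and many of the division genes lie above the diagonal, near 0 in members.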

How the data were processed

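Nuclear RNA was profiled with the 10x Genomics droplet method in 1 HKO and 1 WT library. The deposited values are raw counts of UMIs per gene and barcode, not normalized, from Cell Ranger 5.0.0 per the file headers. The submitters' processing notes list GRCm38, Seurat 3.2.0 and STAR without saying what each was used for. Groups were taken from the sample titles, since the genotype field holds the age.

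The members and the gene lists were chosen with earlier results of these data known. No doublet caller was run and no doublets were removed, so barcodes holding more than 1 nucleus may be among the members. Each member was paired without replacement with the gated nucleus of 0 rule UMIs nearest in total UMIs, within 10%. Raw counts were summed per library and kind of nucleus and scaled to CPM, and log2 ratios carry 0.5 CPM added to each level, which understates the change of low genes. A gene was measured where its 2 levels averaged 10 CPM or more, and a size of 1 on the log2 scale (2-fold) stood in for a test. Ratios between a library's members and partners use the partnered members, and HKO over WT ratios use all members. Poisson intervals were used for levels, conditional binomial ones for folds and Clopper-Pearson ones for shares. The calculation was run on simulated Poisson counts with known changes set in genes above the floor. These counts held no spread between nuclei or libraries. That run checks the code only and says nothing of genes near the floor.

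Named genes were the 12 rule genes and, outside them and unnamed gene models, mitochondrial, Xist and Y-linked genes, the 16 highest and 10 lowest ratios of members over partners (by the library with the smaller size), up to 4 genes per list with the largest mean size, the 8 highest and 8 lowest ratios of HKO over WT, the 5 highest and 5 lowest differences of that ratio between members and partners, and Sox9. The rule gave 150 genes, of which some are described. Others named in the text to complete a list, in the class of 20 or more rule UMIs, or among centriole genes were chosen after their values were seen. Gene positions come from GENCODE vM21 and promoter sequences from RefSeq. Software was Python 3.11.15 with pandas 2.3.3, scipy 1.17.1, numpy 2.4.6 and, for figures, matplotlib 3.10.9. TMM factors came from edgeR 4.0.16 in R 4.3.3.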

Additional observations from a re-analysis of the deposited data

How the results depend on the processing

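No paired analysis was possible because the titles share the number 1 but each group has 1 library. Of 16 settings, shares were recomputed under 9, counts of genes higher or lower in members under 15 and counts of HKO against WT under 14. Of the settings, 2 (20 or more rule UMIs, and leaving out the 70 barcodes that both libraries hold) were added after the data were seen. The share of members, 5.79% in HKO and 11% in WT, became 3.13% and 6.07% after thinning, 3.81% and 7.25% with at least 6 rule UMIs from 3 genes, 7.58% and 15.5% with at least 3 from 2 genes, and 0.583% and 1.31% with at least 20, and in WT 9.60% with the gate widened to marker lists of other cell types and 14.7% with a minimum of 3000 UMIs. It was higher in WT under the 9 settings run. The 275 genes higher in members became 464 at a floor of 1 CPM and 52 at 50 CPM. The 0 genes lower in members became 6 with at least 6 rule UMIs, 4 with 0 gate UMIs, 4 with the widened gate, 1 with the mean CPM of single nuclei, 1 with TMM, 12 at a floor of 1 CPM and 38 with at least 20 rule UMIs. The 282 genes higher in HKO members became 505 with the widened gate, 187 with the median of ratios, 816 at 1 CPM, 107 at 50 CPM and 665 with at least 20 rule UMIs, and the 352 lower became 793, 170 and 661 under the last 3 of these. Floors and stricter rules change the genes tested or the nuclei summed by construction, and other causes were not tested. Of 426 values of named genes, recomputed 5388 times, 1 reversed: Pcdh11x in HKO members over partners, from -1.24 to 0.11 with the widened gate. More moved without reversing, up to 220 of 426 with at least 20 rule UMIs, 127 with the widened gate and 93 with 5 CPM added. Without the shared barcodes the counts were 273, 0, 283 and 356. Low counts limit genes under about 10 CPM, and no setting replaces a replicate.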

Other observations

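Genes of the centrosome and centriole, which duplicate once per cell cycle and organize the spindle poles, were among the 119 genes higher in members that stand in none of the cell cycle lists. They were picked after their values were seen, so they describe these nuclei only. Cep128, a protein of the mother centriole, stood at 349 CPM in HKO members against 37.2 CPM in depth-matched nuclei without rule UMIs, and at 272 against 59.1 CPM in WT. Cep112 stood at 93.0 against 8.58 CPM in HKO and 98.3 against 16.2 CPM in WT. Poc1a, a centriole stability factor, had log2 ratios of 2.79 in HKO and 2.35 in WT, and Sass6, the cartwheel protein of new centrioles, 2.56 and 1.72. Scaffolds of the material around the centriole were higher as well, with Cdk5rap2 at 2.48 and 1.72, Cep192 at 1.72 and 2.10, and Pcnt at 1.18 and 1.20.

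Other genes outside the lists were also high. Sdk1, a cell adhesion protein known from neurons, stood at 159 against 7.15 CPM in HKO and 98.7 against 10.6 CPM in WT, and in members with 20 or more rule UMIs at 342 and 219 CPM. The kinase Map4k4 had log2 ratios of 3.28 and 2.79, and the cytoskeletal linker Gas2l3 2.81 and 2.32. Pbx3, a homeobox factor, stood at 312 against 135 CPM in HKO and 198 against 86.3 CPM in WT. Skp2, the ubiquitin ligase subunit that marks Cdkn1b for destruction, had log2 ratios of 1.53 and 1.46. Cdkn1a, the CDK inhibitor p21, stood at 23.7 against 6.67 CPM in HKO (50 against 14 UMIs) and at 13.2 against 2.0 CPM in WT (66 against 10 UMIs), and so was higher in members of both libraries, on counts too low in 1 of the libraries to reach the 10 CPM mean.

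Meg3, a long noncoding RNA of an imprinted locus, stood at 30.7 CPM in WT members against 112 CPM in their partners, and at 54.1 against 70.5 CPM in HKO. In members with 20 or more rule UMIs it was lower than in partners of both libraries, at 11.6 against 70.1 CPM in HKO and 18.9 against 147 CPM in WT. Tbx3os1, an antisense RNA of the pericentral factor Tbx3, had 0 UMIs in these HKO members against 8 in their partners, and stood at 12.6 against 57.8 CPM in WT.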
